A study of Mus musculus with 4 samples.

Results

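Z-disc proteins were described here through 10 genes, Myoz1, Myoz2, Myoz3, Myot, Tcap, Ldb3, Pdlim3, Pdlim5, Flnc and Des, out of 15108 genes tested. They were chosen by name, as structural proteins of the Z-disc or its surroundings, and each was read at the probe set with its highest mean level. All 10 passed the filter on dim probe sets. The arrays hold RNA of tibialis cranialis, a lower leg muscle, of 8 C57Bl/6 males given a high fat diet when 8 weeks old. After 4 weeks of the diet 1 leg received an intramuscular injection of AAV8 ProMyo, an adeno-associated virus carrying the propeptide of myostatin, and the other leg received saline. Muscles of both legs were taken 10 weeks after injection, at 22 weeks of age. RNA of animals 1-4 and of animals 5-8 was pooled in equal amounts, which gave 2 ProMyo arrays and 2 saline arrays. All mice ate the high fat diet, the saline leg received no empty vector, each array averages 4 animals, and the labels do not name the promoter of the vector.

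The Z-disc is the boundary between neighbouring sarcomeres, where actin filaments of opposite polarity are crosslinked by alpha-actinin and where titin is anchored. The proteins described here bind alpha-actinin, titin or actin, or tie the Z-disc to its neighbours and to the cell membrane, and mutations in the human genes of several of them cause myopathy or cardiomyopathy. Myostatin, a secreted inhibitor of muscle growth, is held inactive by its propeptide, and muscle in which myostatin is blocked grows larger.

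Promoters are shown to place the members beside sequence elements common in muscle genes. Windows from RefSeq (GRCm38.p6) of 300 bases around the transcript start were matched by symbol for 6 of the 10 genes. Both strands were searched for the E-box CANNTG, bound by the MyoD family, for CATTCC, the MCAT element bound by TEAD factors, and for the MEF2 and CArG motifs, bound by MEF2 factors and by serum response factor. E-boxes were in windows of 4 of the 6 genes and in 72.3% of all 32851 windows, and MCAT elements in 2 of the 6 and in 14.7% of all windows. A gene was counted if any of its windows held a match, while the shares are per window. Pdlim5 held an E-box in 1 of its 2 windows. A MEF2 match was found in the Myoz2 window and in 3.19% of all windows, and a CArG match in the Ldb3 windows and in 1.63% of all windows. Myoz2 (chr3:123034938-123035237, minus strand), Ldb3 (chr14:34588632-34588931, minus strand), Pdlim3 (chr8:45885237-45885536, plus strand) and Des (chr1:75360042-75360341, plus strand) are printed 5′ to 3′, with motif matches in capitals, none of which overlap. Capitals mark a MEF2 match followed by 2 E-boxes in Myoz2, a CArG match in Ldb3, 2 E-boxes and 2 MCAT elements in Pdlim3 and 2 E-boxes in Des. These matches describe letters in the windows and no binding was measured.
Myoz2: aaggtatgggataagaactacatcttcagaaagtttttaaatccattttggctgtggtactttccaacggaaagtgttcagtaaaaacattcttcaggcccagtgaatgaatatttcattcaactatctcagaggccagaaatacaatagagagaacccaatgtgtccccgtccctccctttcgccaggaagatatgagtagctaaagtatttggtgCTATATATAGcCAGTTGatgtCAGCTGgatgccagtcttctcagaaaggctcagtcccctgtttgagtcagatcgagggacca
Ldb3: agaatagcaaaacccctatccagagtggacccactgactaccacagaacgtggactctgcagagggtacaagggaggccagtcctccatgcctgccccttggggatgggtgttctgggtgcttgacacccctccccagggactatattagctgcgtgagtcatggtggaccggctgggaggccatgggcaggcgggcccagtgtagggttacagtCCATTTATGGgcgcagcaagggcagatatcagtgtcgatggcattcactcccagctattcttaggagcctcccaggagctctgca
Pdlim3: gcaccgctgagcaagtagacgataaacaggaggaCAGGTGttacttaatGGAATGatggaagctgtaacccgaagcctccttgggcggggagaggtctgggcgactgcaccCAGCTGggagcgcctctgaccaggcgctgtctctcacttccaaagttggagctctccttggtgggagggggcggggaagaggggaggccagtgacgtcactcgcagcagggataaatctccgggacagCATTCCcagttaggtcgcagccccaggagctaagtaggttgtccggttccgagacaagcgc
Des: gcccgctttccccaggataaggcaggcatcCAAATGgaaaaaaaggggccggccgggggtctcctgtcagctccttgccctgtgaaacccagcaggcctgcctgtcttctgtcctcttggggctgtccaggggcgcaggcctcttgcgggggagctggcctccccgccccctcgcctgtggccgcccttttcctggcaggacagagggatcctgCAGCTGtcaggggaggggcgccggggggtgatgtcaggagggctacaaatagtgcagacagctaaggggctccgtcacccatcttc

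Values are expression per probe set as deposited, read as log2. Array medians lay between 1.06 and 1.11. The saline 5-8 array stood apart, with an upper quartile of 2.97 against 3.15 to 3.20 on the other arrays and a mean of its hybridization controls of 11.1 against 10.1 to 10.2. Bacillus control probe sets reached 0.99 at most and were taken as the background level. Skeletal muscle markers (Acta1, Ckm, Myh4, Ttn, Mb and Tnnt3) had a mean level of 11.16 and 11.11 on the ProMyo arrays and 11.15 and 11.05 on the saline arrays. Of 4 measured markers of heart muscle, 2 were within background on all arrays. The difference between 3′ and 5′ probe sets of Gapdh, a measure of RNA integrity, was 0.58 and 0.74 log2 units on the ProMyo arrays and 0.90 and 0.81 on the saline arrays. The part of this difference in the results was not tested.

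The comparison of ProMyo with saline muscle asks what the vector with the myostatin propeptide changes in a muscle under a high fat diet. Each of the 10 Z-disc genes differed by less than 0.2 log2 units between the legs. Of the 10 genes, 0 passed limma's test (adjusted p between 0.88 and 0.99), beside 0 of all genes, a share of 0%. Of the 10, 0 had an unadjusted p under 0.05, against 876 of 15108 genes or 5.8% (44 of the 2278 genes at least as bright as the dimmest member, or 1.93%). With the pool of animals as a block 0 members passed as well, and 6.89% of all genes had an unadjusted p under 0.05. The differences, ProMyo minus saline, ran from -0.13 for Myoz2 to 0.17 for Pdlim3, with standard errors of 0.15 to 0.20 on the log2 scale. The 95% intervals of all 10 lay between -0.60 and 0.57, which is at most 1.49-fold higher in ProMyo muscle and at most 1.52-fold higher in saline muscle. Whole muscle was measured, where fewer cells of a type and less RNA per cell cannot be told apart. With 2 pools per group the test rests on 2 residual degrees of freedom and on the spread of all genes. A variance model with trend, where the spread follows the level, gave all 10 a smaller standard error. These ran from 0.064 for Ldb3 to 0.17 for Flnc, and no member passed (limma with trend, smallest adjusted p = 0.83).

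**Figure D1:**
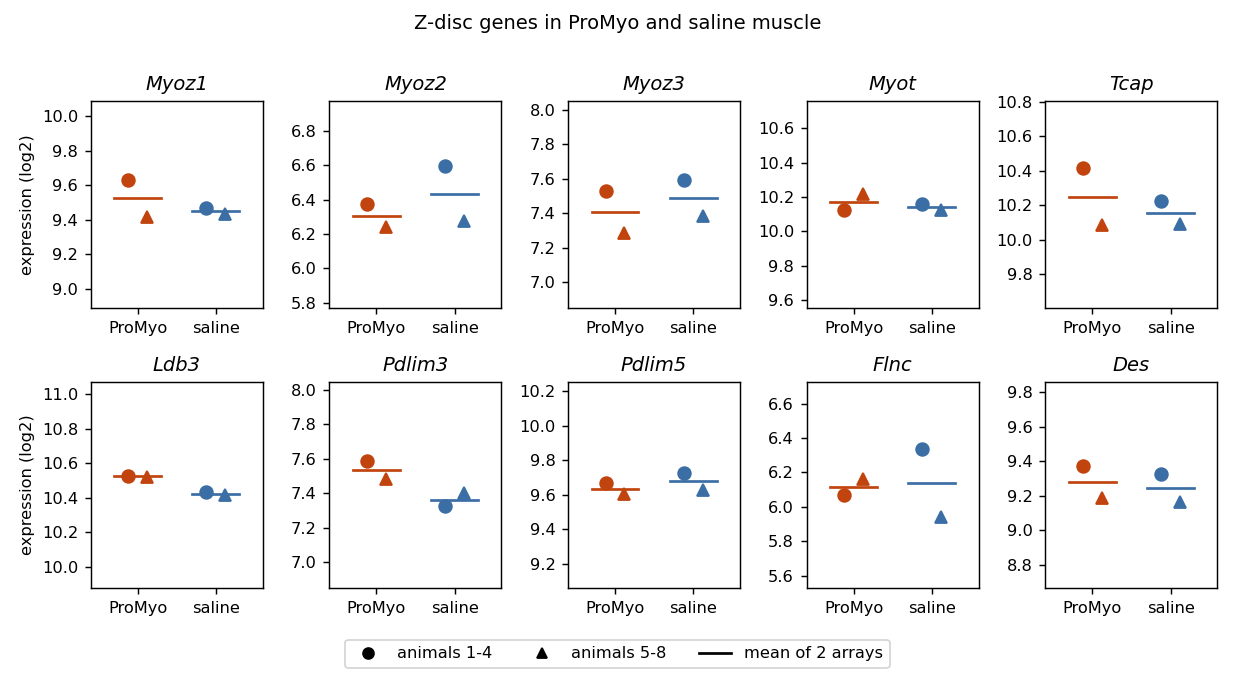
Expression (log2, y axis) of the 10 Z-disc genes in ProMyo and saline muscle, 1 panel per gene with the same span of the y axis, points for the arrays of animals 1-4 and 5-8 and lines for group means. The groups are apart in Ldb3 and Pdlim3, and overlap in the other 8 genes.

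The myozenins, also called calsarcins, bind alpha-actinin and the phosphatase calcineurin at the Z-disc. Myoz1, the form of fast fibres, had 9.63 and 9.41 in the ProMyo arrays of animals 1-4 and 5-8, against 9.47 and 9.44 in the saline arrays. The groups overlapped, with the highest and the lowest value both in ProMyo muscle, and the difference was 0.07 ± 0.17 (log2 ± SE, n = 2 pools per group; limma, adjusted p = 0.97). Myoz2, the form of heart and slow fibres, had 6.37 and 6.24 in ProMyo muscle, against 6.59 and 6.28 in saline muscle. The saline 1-4 array was the highest, and the difference was -0.13 ± 0.19 (limma, adjusted p = 0.93). Its 95% interval reached from -0.60 to 0.35. Myoz3, a form enriched in fast fibres, had 7.53 and 7.29 in ProMyo muscle, against 7.59 and 7.39 in saline muscle. Each ProMyo pool was slightly below its saline pool, with -0.06 in pool 1-4 and -0.10 in pool 5-8. Unpaired, with a spread between pools of 0.17 and 0.15 (SD), the difference was -0.08 ± 0.18 (limma, adjusted p = 0.96). With the pool as a block it was -0.08 ± 0.15 (limma, adjusted p = 0.90).

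Myotilin and telethonin stand at the actin crosslinks and at the titin anchor. Myot, which binds alpha-actinin, filamin C and actin, had 10.12 and 10.22 in ProMyo muscle, against 10.16 and 10.12 in saline muscle. All 4 arrays lay within 0.1 of each other, and the difference of 0.03 ± 0.16 had opposite signs in the pools (limma, adjusted p = 0.99). Quantile normalization gave -0.0076. Tcap, or telethonin, which joins the N-terminal ends of a pair of titin molecules, had 10.41 and 10.09 in ProMyo muscle, against 10.22 and 10.09 in saline muscle. The ProMyo 1-4 array was the highest and both 5-8 arrays were level, which gave 0.19 in pool 1-4, -0.0021 in pool 5-8 and 0.09 ± 0.19 together (limma, adjusted p = 0.95).

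PDZ and LIM domain proteins bind alpha-actinin through their PDZ domain. Ldb3, known as ZASP or Cypher, had 10.53 and 10.52 in ProMyo muscle, against 10.43 and 10.42 in saline muscle. Both ProMyo arrays lay above both saline arrays, and the pools gave 0.10 each. The pools of a group differed by only 0.01 (SD), but the standard error that limma takes in part from all genes was 0.15, and the difference of 0.10 ± 0.15 did not pass (adjusted p = 0.94). Pdlim3, the actinin-associated LIM protein ALP, had 7.59 and 7.48 in ProMyo muscle, against 7.32 and 7.40 in saline muscle. Both ProMyo arrays were again the higher ones, with 0.26 in pool 1-4 and 0.08 in pool 5-8, and Pdlim3 had the largest difference of the 10 genes with 0.17 ± 0.16, or 1.13-fold (limma, adjusted p = 0.88). Its 95% interval ran from -0.23 to 0.57. Pdlim5, the enigma homologue ENH, had 9.67 and 9.60 in ProMyo muscle, against 9.73 and 9.63 in saline muscle. The groups overlapped and the difference was -0.04 ± 0.16 (limma, adjusted p = 0.98).

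Filamin C and desmin connect Z-discs to the membrane and to each other. Flnc, the muscle filamin, which crosslinks actin, had 6.07 and 6.16 in ProMyo muscle, against 6.34 and 5.94 in saline muscle. The 2 saline arrays were the highest and the lowest of the 4, and the pools went opposite ways, with -0.26 in pool 1-4 and 0.22 in pool 5-8. The mean difference of -0.02 ± 0.20 (limma, adjusted p = 0.99) had the largest standard error of the 10. Des, the intermediate filament protein desmin, had 9.37 and 9.19 in ProMyo muscle, against 9.33 and 9.16 in saline muscle. Here the arrays were ordered by pool rather than by leg, and the difference was 0.04 ± 0.17 (limma, adjusted p = 0.99).

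**Figure D2:**
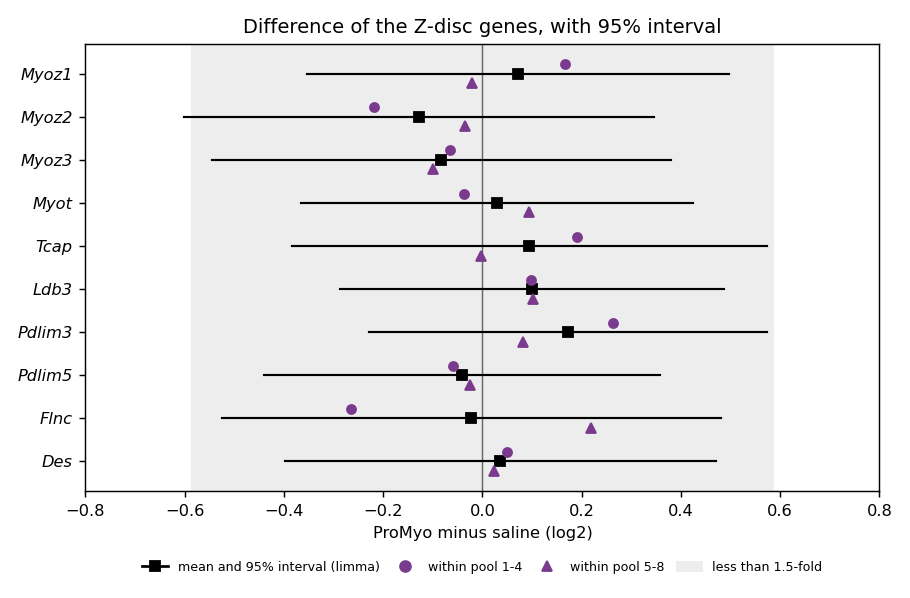
ProMyo minus saline (log2, x axis) for the 10 Z-disc genes, with the mean and 95% interval from limma as squares and bars, the difference within each pool of animals as circles and triangles, and differences under 1.5-fold shaded. Every mean lies within 0.2 of 0, and the lower end of the Myoz2 interval at -0.60 is the only bound outside the shading.

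Within the pools, Ldb3, Pdlim3 and Des were higher in ProMyo muscle in both, 3 of 10 members beside 29% of all genes and 40.4% of the bright genes defined above, and Myoz2, Myoz3 and Pdlim5 were lower in both, 3 of 10 beside 24% of all genes and 19% of the bright genes. With quantile normalization Des left the first group, with differences of 0.0023 and 0, and with arrays centred on their medians that group had 4 members. Shares over all genes are not given for these other scalings. Both ProMyo arrays lay above both saline arrays for 2 of 10 (17.8% of all genes, 27.3% of the bright ones) and below them for 0 of 10 (15.7% and 11.2%). ProMyo exceeded saline 1.5-fold or more in each pool in 0 of 10 (1.05% and 0.0878%), and saline exceeded ProMyo as much in 0 of 10 (0.563% and 0.219%). The members' counts are near these shares and lean to neither group. The members' median difference was 0.03, beside 0.01 over all genes. Without the saline 5-8 array the members' differences ran from -0.29 for Myoz2 to 0.21 for Pdlim3, with a median of -0.02 beside -0.02 over all genes, and the lone saline array was assumed to vary like the ProMyo ones.

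The sizes of the differences were small. All 10 members differed by at most 0.2 in either direction, which held for 57.8% of all genes. Among the bright genes, those with a mean of 6.13 or more, the share was 76.9%. The cut of 0.2 was not a planned threshold and lies just above the members' largest difference, 0.17. The count of 10 is therefore a description and no test against these shares. The median size was 0.08 in the members, 0.11 in these bright genes and 0.16 in all genes.

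The arrays were ordered by pool of animals in more members than by leg. Both arrays of animals 1-4 lay above both arrays of animals 5-8 for 6 of 10 members, Myoz1, Myoz2, Myoz3, Tcap, Pdlim5 and Des (23.8% of all genes and 29% of the bright genes), and below them for 0 of 10 (11.4% of all genes, 9.83% of the bright ones). Quantile normalization left 4 of the 6, without Myoz2 and Pdlim5, beside 19.5% of all genes. Pool 1-4 exceeded pool 5-8 by a median of 0.12 over the members in ProMyo muscle and by 0.12 in saline muscle, beside 0.03 and 0.09 over all genes and 0.05 and 0.07 over the bright genes. No test was made of this difference, which rests on 1 array per pool and leg, and the saline 5-8 array with its lower upper quartile is one of the 4.

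Each gene with more than 1 probe set gave a further reading. The 10 genes had 22 probe sets, of which 16 were above background on all arrays and 6 were not. Among the 16 the differences ran from -0.40 to 0.36. Myoz1 gave 0.12 ± 0.15 at its second probe set, beside 0.07 at the first. Flnc gave -0.23 ± 0.16 at its second, an x_at probe set, a type whose probes may also match other transcripts, with 5.80 and 5.99 in ProMyo muscle, against 6.22 and 6.03 in saline muscle, so that both ProMyo arrays were the lower ones there but not at the first.

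Ldb3 and Pdlim5, which are both known to be spliced into long and short forms, each had 3 probe sets above background. The second of Ldb3 read 0.07 ± 0.15 and the third, with 5.31 and 4.54 in ProMyo muscle, against 4.79 and 4.33 in saline muscle, read 0.36 ± 0.32. The third probe set was higher in ProMyo in each pool, but the groups overlapped. The second of Pdlim5, with 7.48 and 6.81 in ProMyo muscle, against 7.50 and 7.34 in saline muscle, read -0.28 ± 0.26. The third, with 3.34 and 3.75 in ProMyo muscle, against 3.95 and 3.93 in saline muscle, read -0.40 ± 0.19, and both ProMyo arrays were below both saline arrays. None of these passed limma's test over all probe sets (adjusted p = 0.78 for the third probe set of Pdlim5). Which splice forms the probe sets read was not analysed here. The other probe sets of Pdlim5, and the second ones of Des and Myoz3, lay between -0.14 and 1.01 and carry no usable difference.

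**Figure D3:**
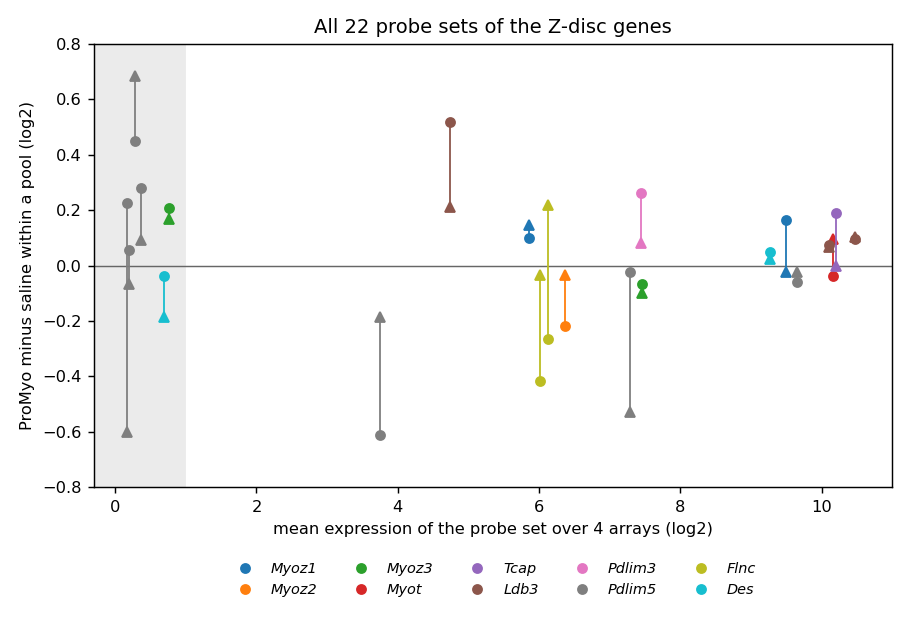
Difference between ProMyo and saline within pool 1-4 (circles) and pool 5-8 (triangles) on the log2 scale (y axis) against the mean expression of each of the 22 probe sets (log2, x axis), coloured by gene, with the background level shaded. All probe sets with a mean above 9 lie within 0.2 of 0.

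Proteins that share the Z-disc were listed beside the members. Of 29 such genes 28 were measured, and 0 passed limma's test. Their median difference was -0.0022, with both pools higher in ProMyo muscle for 5 genes and lower for 7, or for 5 and 13 after quantile normalization, where the median was -0.06. In the main comparison 29% of all genes were higher in both pools and 24% lower, and these shares stand beside the main counts of the later lists too. After quantile normalization the median over all genes moved from 0.01 to -0.02, and no such shares are given. Counts after quantile normalization, here and in the later lists, therefore have no background beside them. Leaving out 1 array moved the median of the Z-disc partners between -0.03 without saline 5-8 and 0.05 without saline 1-4, so it had no stable sign. The anchors Actn2 and Actn3, which encode the alpha-actinins that most of the members bind, stood at -0.06 ± 0.16 and 0.21 ± 0.17 (limma, adjusted p = 0.97 and 0.87). Csrp3, the muscle LIM protein, which is enriched in slow fibres and binds telethonin and alpha-actinin, stood apart from both the members and the rest of this list. It had 7.56 and 7.39 in ProMyo muscle, against 8.46 and 7.91 in saline muscle. Both ProMyo arrays were below both saline arrays, with -0.90 and -0.52 within the pools, and the difference of -0.71 ± 0.23 did not pass (limma, adjusted p = 0.82). Palld, the actin-binding palladin, stood at 0.24 ± 0.16 and Capn3, a protease bound to titin, at -0.23 ± 0.16. A second probe set of Capn3 went the other way.

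Other proteins with PDZ or LIM domains had a median of -0.03 over 8 measured genes, 2 higher and 3 lower in both pools, with 0 past the threshold. Pdlim2, among the higher ones, and Fhl3, among the lower ones, were within background on all arrays. Quantile normalization gave a median of -0.07 for the list, with 1 higher and 4 lower. The sign of the median depended on single arrays, with -0.15 without saline 5-8, -0.05 without ProMyo 1-4, 0.04 without ProMyo 5-8 and 0.09 without saline 1-4. Pdlim7, or enigma, stood at -0.27 ± 0.17 and differed by -0.27 in each pool. A second probe set of Pdlim7, above background on all arrays, read 0.32 in pool 1-4 and -0.42 in pool 5-8. Csrp1 stood at -0.24 ± 0.17, Lmcd1 at 0.25 ± 0.19 and Pdlim4 at 0.43 ± 0.33. In Pdlim4 the pools read -0.05 and 0.92, with the saline 5-8 array the lowest. Calcineurin, which the myozenins bind, and the NFAT factors it activates had a median of 0.01 over 10 genes, 3 higher and 1 lower in both pools, with 0 past the threshold. Quantile normalization turned this to -0.05, with 1 higher and 3 lower, and the median was -0.04 without ProMyo 1-4, -0.02 without saline 5-8, 0.07 without ProMyo 5-8 and 0.09 without saline 1-4. Ppp3r1, the regulatory subunit, stood at 0.42 ± 0.28, of which pool 1-4 gave -0.05 and pool 5-8 gave 0.90, and here too the saline 5-8 array was the lowest. Ppp3ca, a catalytic subunit, stood at 0.24 ± 0.18, Nfatc4 at -0.23 ± 0.32 and Cabin1, an inhibitor of calcineurin, at 0.16 ± 0.23.

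**Figure D4:**
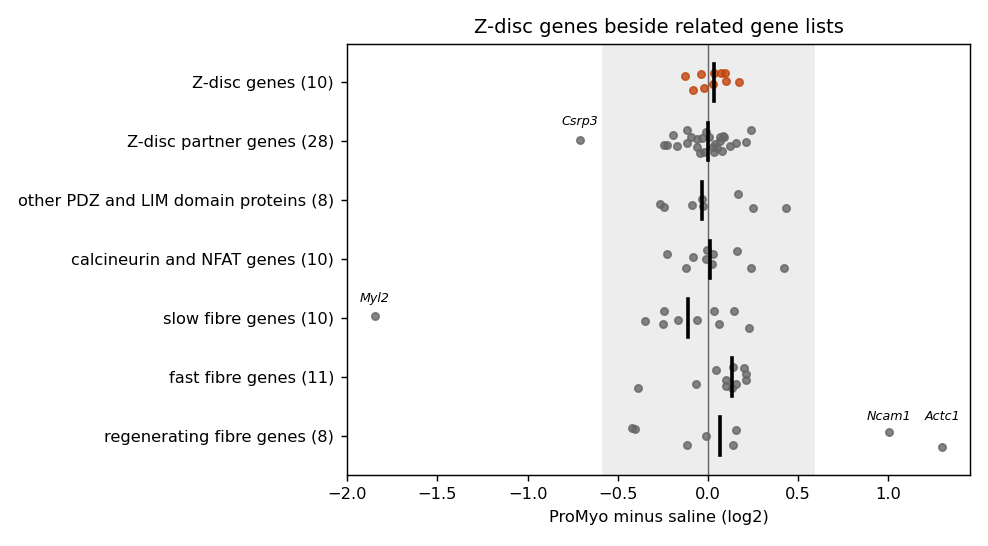
ProMyo minus saline (log2, x axis) of the Z-disc genes and of genes in 6 related lists (rows, with the number measured), with a dot per gene, a bar at the median and differences under 1.5-fold shaded. The Z-disc genes run from -0.13 to 0.17, and the fast fibre genes other than Myh2 lie about as close together, from -0.07 to 0.21. Csrp3, Myl2, Ncam1 and Actc1 lie outside the shading.

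Fibre type genes were set beside the myozenins, since Myoz2 belongs to slow and Myoz1 and Myoz3 to fast fibres. Slow fibre genes had a median of -0.11 over 10 measured, 3 higher and 4 lower in both pools. Of the 3 higher ones, Tnni1 and Myh7b were within background on all arrays. The slow median was -0.0082 without saline 5-8 and -0.01 without ProMyo 1-4, but -0.15 without either of the other arrays. Myl2, the slow regulatory light chain, stood at -1.85 ± 0.65 and was the 1 slow gene at least 1.5-fold lower in both pools, while Myl3, Tnnc1 and Tnnt1 stood at -0.35 ± 0.19, -0.24 ± 0.16 and -0.25 ± 0.25. Myoz2 at -0.13 lay within the range of the slow list, -1.85 to 0.23, and also within that of the fast list, -0.39 to 0.21. These ranges therefore do not place Myoz2 with either list. Fast fibre genes had a median of 0.13 over 11 measured, 9 higher in both pools and 1, Myh2, lower at -0.39 ± 0.19. The shares higher in both pools were 29% of all genes and 40.4% of the bright genes. After quantile normalization the slow median was -0.17 and the fast one 0.06, with 5 of the 11 fast genes higher and 2 lower in both pools. Leaving out 1 array gave fast medians from 0.08 without saline 5-8 to 0.18 without saline 1-4. Mylpf, Casq1 and Mybpc2 stood at 0.21 ± 0.15, 0.21 ± 0.17 and 0.20 ± 0.17. In neither list did a gene pass limma's test (smallest adjusted p = 0.82).

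Regenerating fibres and cells other than fibres were checked because desmin, filamin C and Pdlim3 are also made by smooth muscle, and desmin by satellite cells. The regenerating fibre list had a median of 0.06 over 8 genes, or -0.0066 after quantile normalization, -0.01 without saline 5-8, -0.0045 without ProMyo 5-8, 0.12 without ProMyo 1-4 and 0.14 without saline 1-4, with Actc1 at 1.30 ± 0.31 and Ncam1 at 1.00 ± 0.30, both at least 1.5-fold higher in both pools, Myh3 at -0.40 ± 0.20 and Myh8 at 0.16 ± 0.17, and 0 past limma's threshold. The next brightest probe set of Ncam1 went the other way. The 6 smooth muscle and pericyte markers had a mean level of 4.28 and 4.23 on the ProMyo arrays and 4.29 and 4.03 on the saline arrays, with Tagln at 0.78 ± 0.27 and Acta2 at -0.46 ± 0.21. The 5 satellite cell markers averaged 2.89 and 2.97 on the ProMyo arrays and 3.05 and 2.85 on the saline arrays. Of the other cell types, the median difference was -0.27 for 6 fibroblast, -0.31 for 5 macrophage, -0.33 for 4 tendon, -0.45 for 2 Schwann cell, -0.05 for 3 adipocyte and 0.15 for 4 endothelial markers, and 0 of these passed (limma). Without the saline 5-8 array these medians were -0.14 for fibroblast, -0.52 for macrophage, -0.30 for tendon, -0.34 for Schwann cell, 0.0077 for adipocyte and 0.07 for endothelial markers. With any 1 of the 4 arrays left out, the fibroblast median lay between -0.40 and -0.14 (-0.40 without saline 1-4), the macrophage median between -0.52 and -0.33, the tendon median between -0.39 and -0.27, the Schwann cell median between -0.65 without ProMyo 1-4 and -0.25 without ProMyo 5-8, and the endothelial median between 0.07 and 0.22. The adipocyte median was -0.12 without ProMyo 5-8 and -0.11 without saline 1-4. The part of these cell types in the members' values was not tested.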

How the data were processed

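RNA of tibialis cranialis muscle was measured on Affymetrix GeneChip arrays, 1 per pool of 4 animals. RNA was amplified and biotin-labelled with Nugen kits, per the labels' protocols. The authors deposited log2 RMA values, 1 per probe set, and the submitters' processing notes name Affymetrix Expression Console. Neither its version nor the log base is given in the sources used here. The values ran from -0.45 to 13.15 and were read as log2. Array medians near 1.1 are low for RMA, so folds hold on the deposited scale, and the number of arrays limits the precision.

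Of 45101 probe sets, 34957 had 1 gene symbol after the 64 array controls were set aside. Each gene was read at its brightest probe set, and those with a mean under the 25th percentile (0.45) were left out. No further normalization was made. The main test of ProMyo against saline was limma's (version 3.58.1, under R 4.3.3), with lmFit and a trend-free eBayes over all 15108 genes, with Benjamini-Hochberg adjustment, a threshold of 0.05 and 2 residual degrees of freedom. The script was tested on simulated data. Pools carry the same animals in both legs and so are paired by design. The deviations of same-numbered pools correlated with r = 0.16 across genes. The main comparison is unpaired. With the pool as a replicate block, 0 genes passed as well.

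The members, lists and alternatives were chosen with earlier results of these data known. Named beside the members were Actn2, Actn3 and Csrp3 and up to 4 genes with the smallest p in each related list. Of the cell type lists only those that bear on the members were named by gene. Alternatives were the block, 2 other filters, 2 variance models with trend, median centring, quantile normalization, other probe sets, other folds and leaving out each array. Scaling and left-out arrays for the lists, and scaling for the order of pools, were added after seeing the data.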

Additional observations from a re-analysis of the deposited data

How the results depend on the processing

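Of 126 recomputed member differences, 110 had the sign of the main comparison. The other 16 had the opposite sign, none of them above 0.19 in size. The block, the filters and the variance models with trend leave each difference as it was, so they could turn no sign. The 110 therefore overstate how stable the signs are. Where both groups kept 2 arrays, no recomputed member difference passed the threshold. With the pools paired as a replicate block the members' adjusted p lay between 0.80 and 0.99, and 0 genes passed (1041 at an unadjusted p under 0.05, and 876 unpaired); the block changed no other call. Every probe set as its own feature gave 1 call (adjusted p = 0.0169), at no probe set of a member. Quantile normalization gave -0.0076 for Myot and a median of -0.0032 over the members, beside -0.02 over all genes. Averaging the probe sets of a gene above the filter gave 0.053 for Myoz3, -0.038 for Des and a median of 0.041. It also gave 0.18 for Ldb3 and -0.24 for Pdlim5, which thus left the range within 0.2 of 0. The second brightest probe set gave 0.19 for Myoz3 and -0.11 for Des, both at background, and a median of -0.02 over 6 members. Filters and trend leave the differences unchanged, so the signs could not turn there. Median centring moved each member by about the same small amount, with -0.1266 for Myoz2 beside -0.1274, and turned no sign. Leaving out 1 array gave medians from -0.048 without ProMyo 1-4 to 0.097 without saline 1-4. It gave -0.037 to 0.18 for Myoz1, -0.29 to 0.031 for Myoz2, -0.20 to 0.039 for Myoz3, -0.019 to 0.077 for Myot, -0.070 to 0.26 for Tcap, -0.092 to 0.0091 for Pdlim5, -0.22 to 0.17 for Flnc and -0.059 to 0.13 for Des, and Ldb3 and Pdlim3 stayed above 0. The members higher in both pools, or against the lone array, numbered 2 to 5, and 5 without ProMyo 5-8. Those lower numbered 0 to 5: 5 without ProMyo 1-4, 1 without ProMyo 5-8 and 0 without saline 1-4. No share over all genes stands beside these counts, and the shares of the main comparison do not apply to a lone array. The median over all genes moved too, from -0.02 without saline 5-8 to 0.06 without saline 1-4. The counts are therefore not read as a result about the members. With an array left out, the lone array of a group was assumed to vary like the other group. Causes of these shifts were not tested.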
